A study of Arabidopsis thaliana with 8 samples.

Results

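APS4, CYN, THIC, AT3G23940 and AT3G58610 are nuclear genes of Arabidopsis thaliana for enzymes of sulphur, cyanate, thiamine and branched-chain amino acid metabolism. They were chosen as the probes whose platform annotation, joined by probe number, names only 1 of these genes, and this gave 5 of the 692 probes with a single gene among 3439 probes in all. Each gene had 1 probe, and no probe naming a member also named another gene. The genes were chosen by their function and with their root and leaf intensities, the difference between these and its test known, so the tissue differences of the 5 genes are given as a description, without a test. The samples were 4 arrays of root RNA and 4 arrays of leaf RNA. All were total RNA from wild-type plants of the ecotype Columbia 0, with no treatment or age stated in the labels. The sample titles share a numeric prefix whose meaning is not given. The labels number the arrays 1 to 4 within each tissue and do not say whether they came from separate plants, so the spread between arrays may be technical. The stated purpose of the series was the contrast of root with leaf tissue.

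ATP sulfurylase, which APS4 (AT5G43780) encodes, joins sulphate to ATP and so activates it for reduction to cysteine or for transfer to other metabolites. Cyanase, the product of CYN (AT3G23490), breaks down cyanate with bicarbonate to ammonia and carbon dioxide. THIC (AT2G29630) encodes the plastid enzyme that makes the pyrimidine part of thiamine, vitamin B1, and its transcript is known to carry a riboswitch that responds to thiamine diphosphate. Ketol-acid reductoisomerase and dihydroxyacid dehydratase act one after the other in plastids, on the route to valine and isoleucine that also supplies the precursor of leucine. AT3G58610 is known as the gene of the reductoisomerase and AT3G23940 as the gene of the dehydratase; the RefSeq gene table used here lists both by locus number only. THIC and dihydroxyacid dehydratase are both known to carry an iron-sulphur cluster.

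In the RefSeq table for assembly TAIR10.1, CYN, AT3G23940 and AT3G58610 lie on chromosome 3, APS4 on chromosome 5 and THIC on chromosome 2. The table gives 4 transcripts for THIC, 3 each for CYN and AT3G58610, 2 for AT3G23940 and 1 for APS4. The part of the gene that each probe covers is not given in the sources used here, and 1 value per gene cannot separate these transcripts. No genome build is named for the array, so no coordinates are printed.

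Each value is a spot intensity on a relative linear scale. Summed over all probes, root arrays gave 2868 to 3505 and leaf arrays 3021 to 3426, with the median probe between 0.258 and 0.317 in root and between 0.150 and 0.176 in leaf. Between 12.8% and 15.1% of probes were listed at exactly 0 in root and between 20.0% and 22.8% in leaf, but 0 of the values of the 5 enzyme probes. Log2 differences are root minus leaf after quantile normalisation between arrays, a step that gives all arrays the same distribution of values. They carry the standard error (SE) of limma, a linear model fitted to all 3298 probes above the floor on at least 1 array. The median of these probes differed by 0.05 after normalisation and by 0.80 in the intensities as deposited, so a difference as deposited is read against that shift. Of the leaf markers, LHB1B2, an antenna protein gene, averaged 0.481 ± 0.174 in root and 22.5 ± 2.53 in leaf (SD, n = 4 arrays each). Of 5 tested leaf markers 4 were lower in root and 1, PSBW, was higher (limma, adjusted p below the threshold of 0.05). PSBW averaged 70.8 ± 8.33 in root and 25.1 ± 1.24 in leaf (SD, n = 4 arrays each), against its role as a leaf marker. SBPASE was listed at 0 on all 8 arrays. What these 2 markers mean for the naming of probes by number was not tested. None of the 9 root markers had a probe, so the root label was not checked by root genes.

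APS4 and CYN were brighter on every root array than on any leaf array, THIC and AT3G23940 were dimmer on every root array, and AT3G58610 overlapped between the tissues. After normalisation the tissues did not overlap at 4 of the 5 probes, 2 higher and 2 lower in root, beside 44.2% of all tested probes (22.2% higher and 22% lower in root); since the members were chosen with this contrast known, nothing is read from that count. In RNA of whole organs, fewer cells that express a gene and less of its RNA per cell cannot be told apart.

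**Figure D1:**
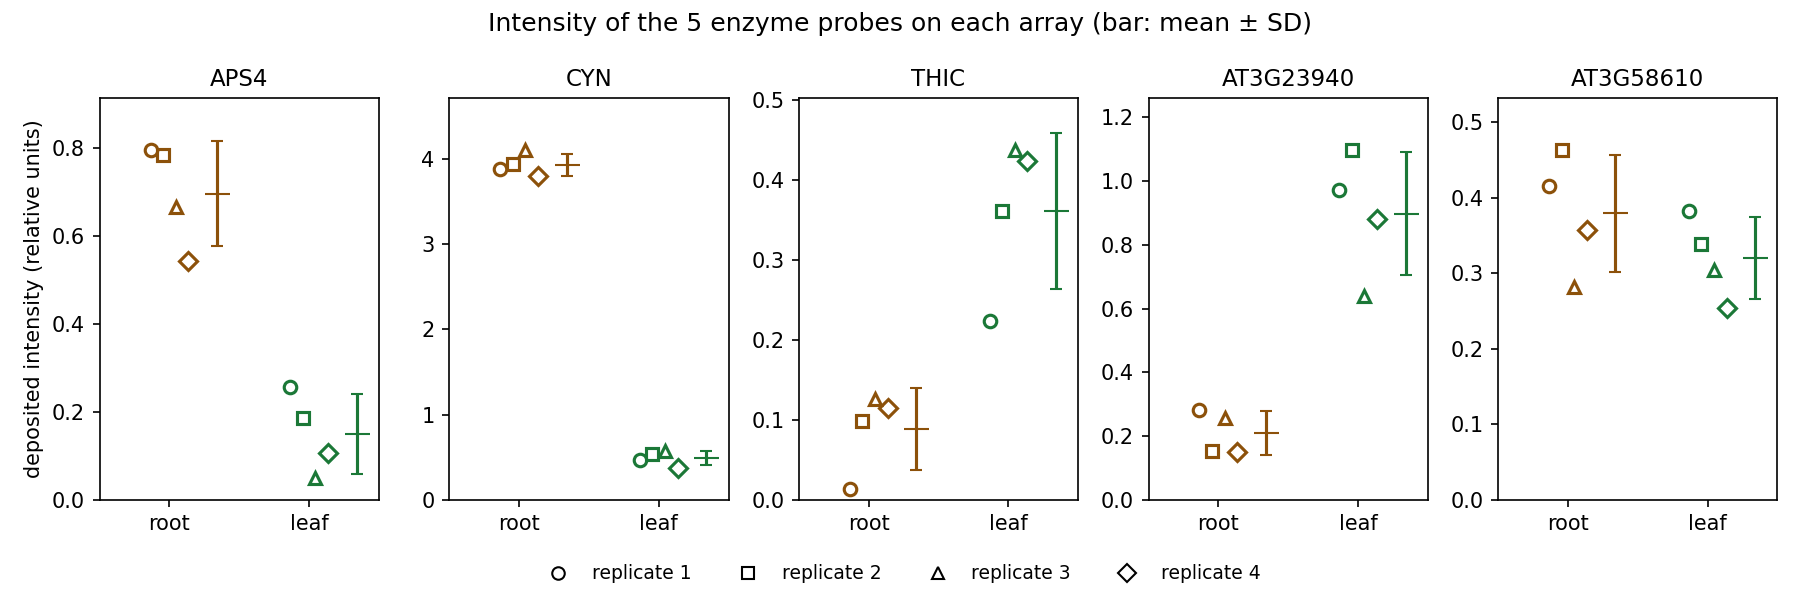
Deposited intensity (vertical axis, relative units, from 0, scaled separately for each gene) of the 5 enzyme probes on each root and leaf array; symbols stand for replicates, and the bar beside them is the mean ± SD of 4 arrays. Root lies above leaf without overlap for APS4 and CYN, below leaf without overlap for THIC and AT3G23940, and the tissues overlap for AT3G58610.

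APS4, the sulphate-activating enzyme gene, read 0.795, 0.785, 0.666 and 0.543 on root arrays 1 to 4, against 0.256, 0.187, 0.0488 and 0.106 on leaf arrays 1 to 4. All root values lay above all leaf values, and the leaf arrays differed more among themselves than the root arrays. The means were 0.697 ± 0.119 in root and 0.150 ± 0.0910 in leaf (SD, n = 4 arrays each), a ratio of 4.66 in intensity as deposited. On the log2 scale after normalisation APS4 was higher in root by 1.72 ± 0.42 (SE), a size larger than that of 65.2% of the tested probes. The coefficient of variation was 17.0% in root and 60.8% in leaf. Among probes within 2-fold of its own level in the same tissue, the median coefficient was 20.8% in root and 54.4% in leaf, and 57.4% of these probes in leaf had a lower coefficient than APS4.

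The spread in leaf lay between replicates 1 and 2, which were the brighter, and replicates 3 and 4. On the log2 scale these pairs of leaf arrays differed by 1.40, a size above that of 74.7% of the tested probes. The same pairs of root arrays differed by 0.03, a size above that of 10.2% of the probes. The tissue difference of APS4 was therefore 1.03 in replicates 1 and 2 alone and 2.40 in replicates 3 and 4 alone. Without leaf replicate 3, the dimmest, it was 1.36. The direction was the same in each case.

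CYN had the highest level of the 5 probes in root relative to the rest of its array and the lowest coefficient of variation there. It read 3.88, 3.94, 4.098 and 3.801 on root arrays 1 to 4, against 0.473, 0.534, 0.570 and 0.379 on leaf arrays 1 to 4. The lowest root array was several times brighter than the highest leaf array. The means were 3.93 ± 0.126 in root and 0.489 ± 0.0833 in leaf (SD, n = 4 arrays each), a ratio of 8.03 as deposited, and the log2 difference after normalisation was 2.89 ± 0.20 (SE). This size exceeded that of 87.0% of the tested probes. Its coefficient of variation in root, 3.21%, was higher than that of only 3.13% of the 160 root probes within 2-fold of its level, whose median was 15.8%. In leaf it was 17.0%, against a median of 22.6% among 905 such probes.

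The rank of a probe on its own array does not depend on how arrays are scaled to each other. Quantile normalisation sets each value by this rank, so the ranks restate the normalised differences and are no independent support for them. A rank also depends on the other probes of the array, and the median probe was brighter on root arrays than on leaf arrays. CYN stood above 96.7% to 97.6% of the probes on root arrays and above 68.9% to 78.6% on leaf arrays. APS4 stood above 73.0% to 78.9% of the probes in root and above 29.2% to 61.5% in leaf. Both genes thus held a higher place on each root array than on any leaf array.

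THIC, the thiamine synthesis gene, was the dimmest of the 5 in root relative to the other probes of its array. It read 0.0133, 0.0981, 0.126 and 0.115 on root arrays 1 to 4, against 0.224, 0.361, 0.437 and 0.424 on leaf arrays 1 to 4. Every root array lay below every leaf array, and root replicate 1 lay well below the other root arrays. On root replicate 1 it stood above 15.5% of the probes, where 12.8% to 15.1% of the probes on root arrays were listed at 0. The means were 0.0881 ± 0.0512 in root and 0.361 ± 0.0975 in leaf (SD, n = 4 arrays each), a ratio of leaf over root of 4.10 as deposited. The log2 difference after normalisation was -3.32 ± 0.70 (SE), a size larger than that of 90.7% of the tested probes. Without root replicate 1 it was -2.59. With the floor raised to the 5th percentile of positive values it was -2.89 ± 0.36 (SE), so its size depended on the floor. With an offset added in place of a floor, which draws in differences at low intensity, it was -2.14.

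In rank, THIC stood above 15.5% to 29.6% of the probes on root arrays and above 58.8% to 72.8% on leaf arrays, a shift of -44.4 percentage points between the tissue medians. Its coefficient of variation was 58.1% in root and 27.0% in leaf, beside medians of 37.9% and 27.7% among probes of similar level in the same tissue. Replicates 1 and 2 differed from replicates 3 and 4 by -1.87 in root on the log2 scale, a size above that of 92.7% of the tested probes. Replicate 1 carried most of this, since the normalised log2 values of root arrays 1 to 4 were -6.70, -4.23, -3.47 and -3.71. In leaf the same pairs differed by -0.46, a size above that of 49.0% of the probes.

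AT3G58610, the gene of the reductoisomerase that comes first of the branched-chain pair, read 0.416, 0.463, 0.282 and 0.357 on root arrays 1 to 4, against 0.382, 0.339, 0.305 and 0.254 on leaf arrays 1 to 4. The tissues overlapped, with the dimmest root array inside the range of leaf. The means were 0.380 ± 0.0779 in root and 0.320 ± 0.0540 in leaf (SD, n = 4 arrays each). The sign of its tissue difference depended on the scaling between arrays. It was -0.37 ± 0.20 after normalisation and -0.59 ± 0.24 with each array centred on its median, but 0.24 ± 0.23 as deposited and 0.26 ± 0.18 when scaled to a common mean (SE). Read against the median of all probes under the same scaling, the difference was -0.42 after normalisation and -0.57 under each of the other scalings. Its rank restates the normalised values. AT3G58610 stood above 52.7% to 61.7% of the probes in root and above 59.5% to 69.8% in leaf, with overlap. With overlap between the tissues, these values give no settled direction for AT3G58610, and do not show that its levels are equal.

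AT3G23940, the gene of the dehydratase that acts next, read 0.281, 0.152, 0.257 and 0.150 on root arrays 1 to 4, against 0.972, 1.096, 0.639 and 0.881 on leaf arrays 1 to 4. The brightest root array lay below the dimmest leaf array. The means were 0.210 ± 0.0689 in root and 0.897 ± 0.193 in leaf (SD, n = 4 arrays each), a ratio of leaf over root of 4.27 as deposited. The log2 difference after normalisation was -2.69 ± 0.32 (SE), a size larger than that of 84.5% of the tested probes, and it ran from -2.89 to -2.50 with any 1 array left out. In rank it stood above 31.1% to 49.8% of the probes in root and above 80.8% to 86.9% in leaf, a shift of -46.0 percentage points between the tissue medians.

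The probe of AT3G23940 has a number divisible by 6, and at the 261 probes with such numbers 72.9% of values were listed at 0, against 13.1% at the other probes. It was among 20 of these 261 probes that had no 0 on any array. Within this class it was brighter than at least 90.0% of the probes on each root array and at least 98.5% on each leaf array. The part of this class of probe numbers in the values of AT3G23940 was not tested.

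**Figure D2:**
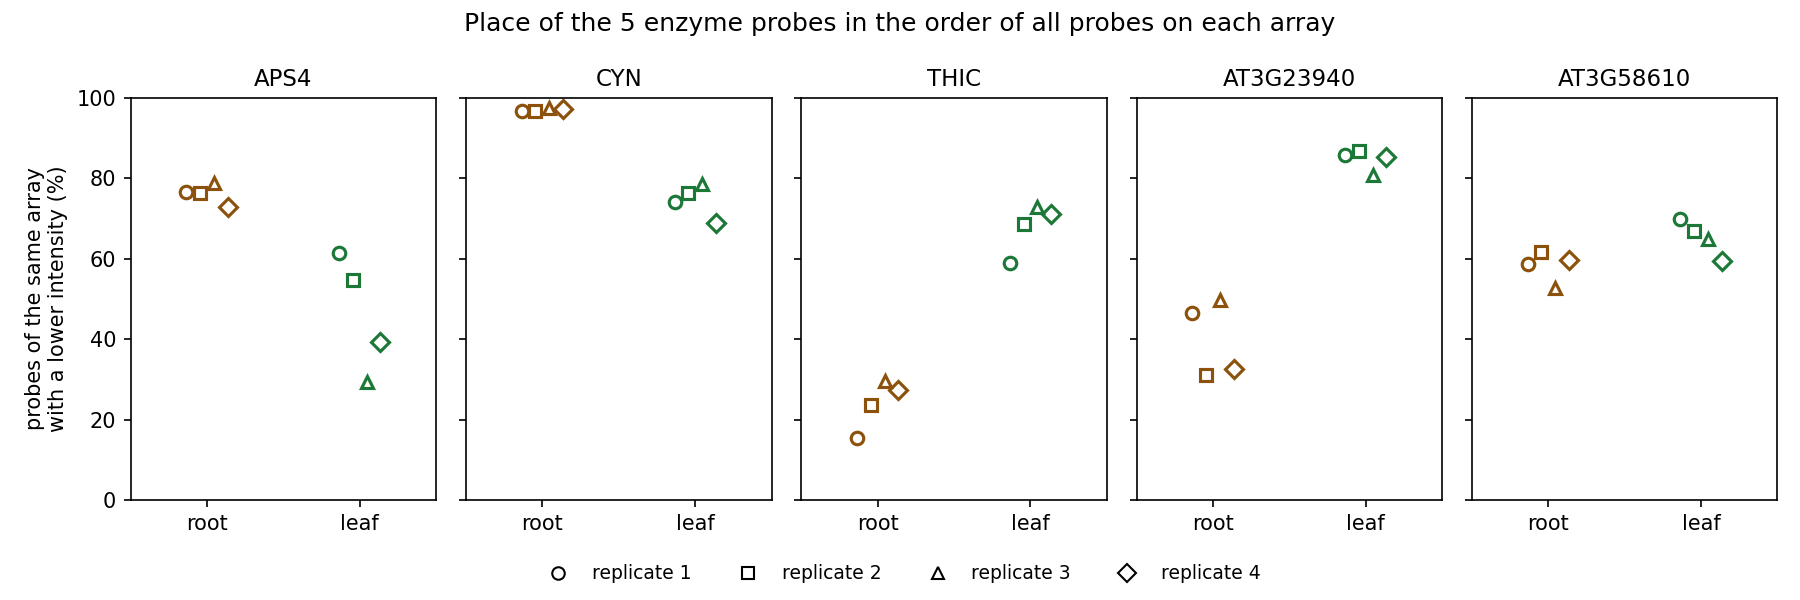
Share of the probes on the same array that had a lower intensity (vertical axis, %) for each of the 5 enzyme probes, by root and leaf array, with symbols for replicates. CYN sits between 96.7% and 97.6% on root arrays, THIC and AT3G23940 sit lower on every root array than on any leaf array, and AT3G58610 overlaps.

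The ratio of the branched-chain probes within an array is also free of scaling between arrays. The intensity of AT3G23940 over that of AT3G58610 was 0.676, 0.329, 0.911 and 0.419 on root arrays 1 to 4, against 2.54, 3.23, 2.095 and 3.47 on leaf arrays 1 to 4. The dehydratase probe was the dimmer of the pair on every root array and the brighter on every leaf array. Because different probes bind their targets differently, the ratio itself is not a ratio of transcripts. Its difference between the tissues was -2.36 on the log2 scale, which restates the differences of the 2 probes on a scale-free footing and is no independent support for them.

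**Figure D3:**
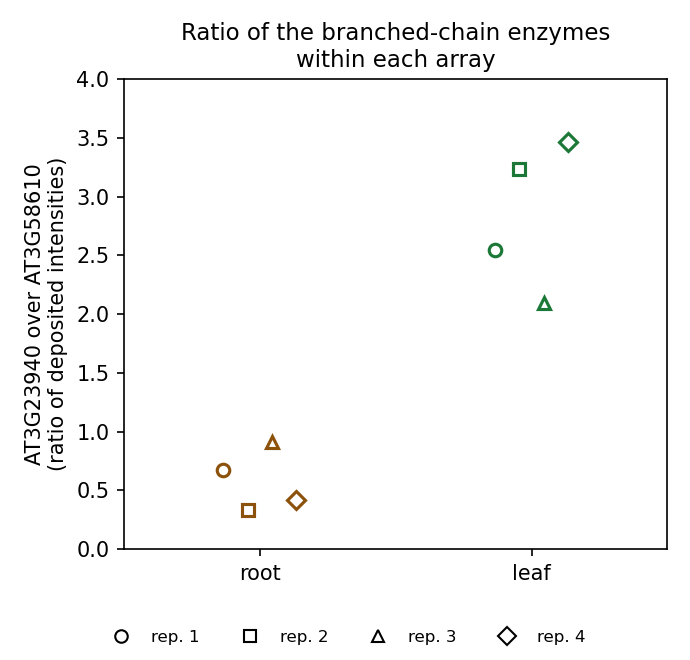
Ratio of the deposited intensity of AT3G23940 to that of AT3G58610 within each array (vertical axis, from 0), for 4 root and 4 leaf arrays, with symbols for replicates. The root ratios lie between 0.329 and 0.911 and the leaf ratios between 2.095 and 3.47.

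Within-array ratios restate the tissue differences of their members free of scaling, and they are given for 3 more pairs. For APS4 over CYN, both brighter in root, the log2 ratio averaged -2.51 ± 0.249 in root and -1.94 ± 1.14 in leaf, with overlap between the tissues. For THIC over AT3G23940, both dimmer in root, it overlapped too, at -1.61 ± 1.88 in root and -1.33 ± 0.678 in leaf (SD, n = 4 arrays each). For CYN over THIC it averaged 5.90 ± 1.53 in root and 0.47 ± 0.511 in leaf, and the root spread came from array 1, at 8.18 against 5.02 to 5.33 on the other root arrays.

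**Figure D4:**
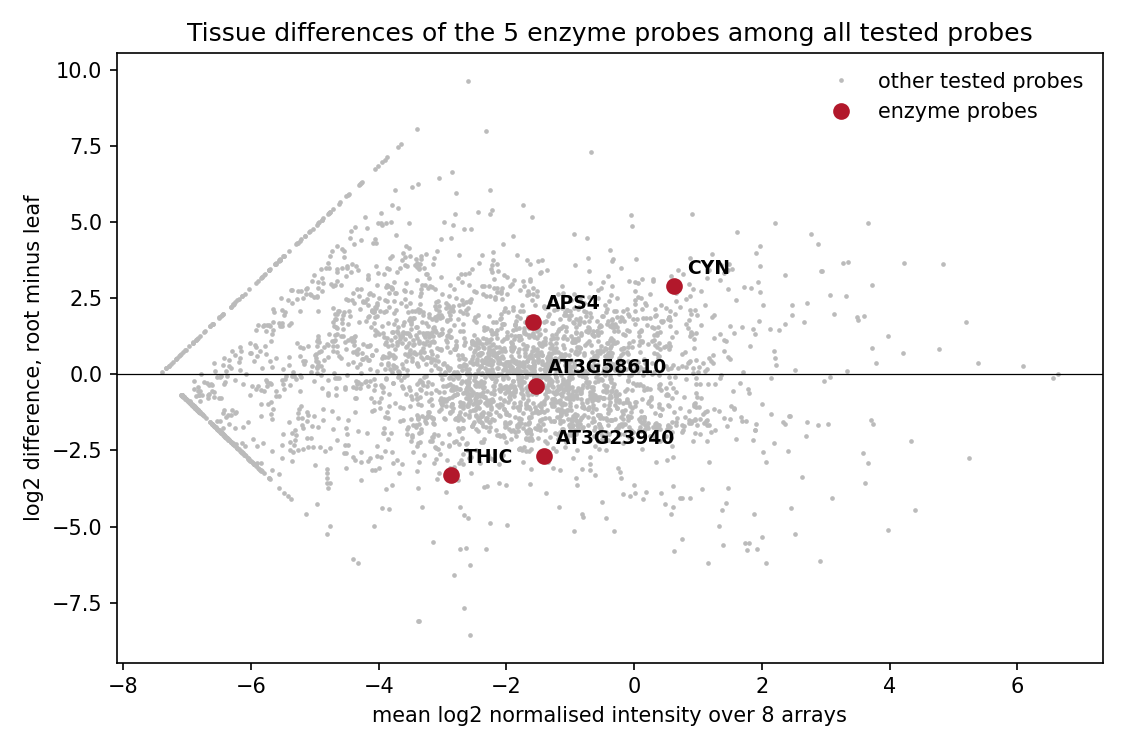
Log2 difference, root minus leaf (vertical axis), against mean log2 normalised intensity over 8 arrays (horizontal axis) for the 3298 tested probes (grey) and the 5 enzyme probes (red). CYN lies at 2.89 and APS4 at 1.72 above 0, AT3G58610 near 0 at -0.37, and AT3G23940 and THIC below 0 at -2.69 and -3.32; the diagonal edges are probes at the floor in 1 tissue.

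The scaling between arrays moved the size of each difference by less than 1 log2 unit, and turned the sign of AT3G58610 alone among the 5. As deposited, the differences were 2.46 for APS4, 3.02 for CYN, -2.41 for THIC and -2.13 for AT3G23940. Measured from the median of all probes under the same scaling, AT3G58610 was at -0.42 after normalisation and -0.57 as deposited. Relative to that median, APS4 was at 1.67 after normalisation and 1.65 as deposited, and CYN at 2.84 and 2.22.

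**Figure D5:**
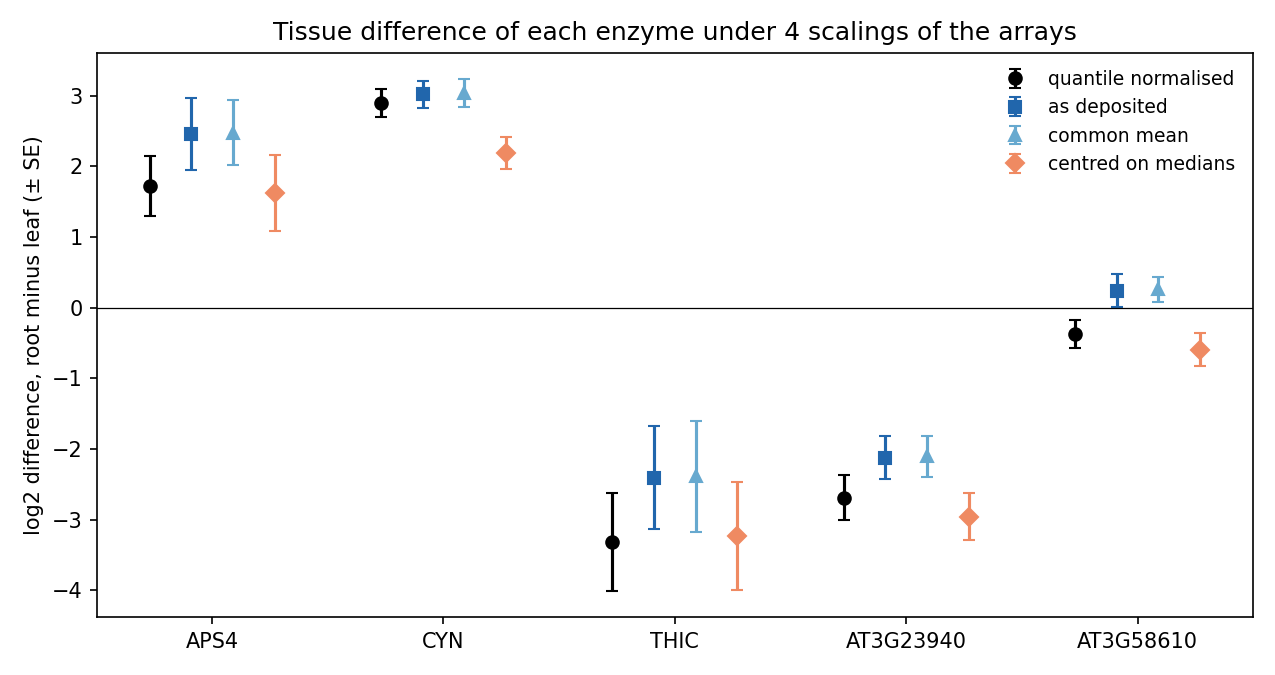
Log2 difference, root minus leaf, with SE (vertical axis) of each enzyme probe under quantile normalisation, as deposited, scaled to a common mean and centred on array medians. APS4 and CYN stay above 0 and THIC and AT3G23940 below 0 under all 4 scalings, while AT3G58610 runs from -0.59 to 0.26.

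The other genes of these routes were sparsely covered. The 9 pathway lists held 130 genes besides the members, for sulphate transport and reduction, cysteine, glutathione and methionine synthesis, cyanide and bicarbonate metabolism, thiamine synthesis and use, branched-chain amino acid synthesis and breakdown, and plastid iron-sulphur cluster assembly. Of these genes 3 had a probe, on 2 probes. By limma, 1 of the 2 probes was lower in root, none was higher and 1 did not pass, beside 42.2% of all tested probes called in either direction, 20.1% higher and 22.1% lower in root.

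CBL (AT3G57050) encodes cystathionine beta-lyase, which carries sulphur from cysteine towards methionine. It read 0.633, 0.675, 0.190 and 0.175 on root arrays 1 to 4, against 0.220, 0.377, 0.210 and 0.177 on leaf arrays 1 to 4. Root replicates 1 and 2 lay above all leaf arrays, and root replicates 3 and 4 at the low end of leaf. The log2 difference was -0.17 ± 0.53 (SE) after normalisation and did not pass (limma, adjusted p = 0.806). Within the root arrays, replicates 1 and 2 differed from replicates 3 and 4 by 1.81, a size above that of 92.0% of the tested probes. The tissue difference was 0.44 in replicates 1 and 2 alone and -0.79 in replicates 3 and 4 alone.

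The probe shared by AT5G65750 and AT3G55410, known as genes of the thiamine diphosphate-dependent subunit of 2-oxoglutarate dehydrogenase, read 0.494, 0.543, 0.416 and 0.437 on root arrays 1 to 4, against 0.612, 0.447, 0.563 and 0.725 on leaf arrays 1 to 4. The tissues overlapped as deposited, through leaf replicate 2. After normalisation the probe was lower in root by a log2 difference of -0.75 ± 0.19 (SE; limma, adjusted p = 0.0153), with adjusted p between 0.00237 and 0.304 over 20 alternatives. It was not called as deposited (-0.30; limma, adjusted p = 0.274), when scaled to a common mean (-0.28; 0.304) or in replicates 1 and 2 alone (-0.59; 0.115). The signal cannot be assigned to 1 of the 2 genes.

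Genes with a pattern like that of a member were ranked by Pearson's r of normalised log2 values over the 8 arrays, among 527 other single-gene probes listed at 0 on at most 2 arrays. Such an r mostly reflects the tissue difference that the probes share: 64 of the 527 exceeded 0.9 with CYN, 69 with AT3G23940, 28 with THIC, 19 with APS4 and 3 with AT3G58610. The probes most like CYN were AT4G39690, AT1G06730 and AT1G51350, with r of 0.995, 0.994 and 0.994. For APS4 they were AT2G29870, AT5G10910 and AT4G21170 (0.970, 0.965 and 0.959). For AT3G23940 they were AT3G26630, AT5G64150 and AT1G21350 (0.980, 0.977 and 0.973).

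THIC was most like AT5G58330, listed as NADP-dependent malate dehydrogenase, an enzyme that exports reducing power from plastids, then PRA1.B6 and AT4G18540 (0.976, 0.976 and 0.973). AT3G58610 was most like GLDH, which makes vitamin C from L-galactono-1,4-lactone, then CSLA01, a gene of the cellulose synthase-like A family, and AT5G33390 (0.946, 0.927 and 0.905).

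The same ranking was made on deviations from the tissue means, which removes the tissue difference and leaves the spread between arrays of 1 tissue. PRA1.B6 led for THIC at 0.973, followed by AT1G73740 and AT1G07040 (0.938 and 0.933). The deviations of THIC were widest at root array 1, at a normalised log2 value of -6.70, and the part of this array in these r was not tested. GLDH and CSLA01 led again for AT3G58610 at 0.910 and 0.906, followed by AT5G10920 (0.905). AT3G50270, AT5G49840 and AT2G46910 were closest to APS4 (0.944, 0.941 and 0.920), and AT4G27700, AT5G49590 and AT2G22890 to CYN (0.928, 0.921 and 0.887). AT2G42490, AT3G19120 and AT3G26630 were closest to AT3G23940, at lower values of 0.793, 0.782 and 0.749. These are the highest of 527 values over 8 arrays, and they describe these arrays only. Whether differences between replicates 1 and 2 and replicates 3 and 4 add to them was not tested.

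Among themselves the members had no close match within tissues. Their pairwise r of deviations ran from -0.466, between AT3G23940 and AT3G58610, to 0.473, between CYN and THIC, over the same 8 arrays.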

How the data were processed

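The values are spot intensities that the authors deposited, 1 per probe and array, for 4 root and 4 leaf arrays grouped and numbered by sample title; how they were hybridised, corrected and scaled is not stated in the labels. Every value column belonged to a sample. The number of arrays limits the precision. Probes were named by the platform annotation, joined by probe number. Intensities were quantile normalised, floored at the 1st percentile of positive values (0.00582) and taken to log2. The model was limma 3.58.1 in R 4.3.3 (lmFit, eBayes, tissue as the only term, two-sided, Benjamini-Hochberg over all 3298 tested probes, threshold 0.05). It was also run on simulated data with independent normal errors and with shifts only at probes above the median level. That run does not cover values near the floor or differences between replicates, and nothing here rests on it. Ranks, ratios and coefficients of variation used deposited intensities. The members and gene lists were chosen with earlier results of these data known. The text names the 5 members, every measured pathway gene, and for each member the 3 most correlated single-gene probes, over all arrays and within tissues. Alternatives were other scalings, floors, filters, variance models and blocks, and subsets of arrays. Outlying values were looked for by Dixon's ratio among the 4 arrays of a tissue, as deposited and as normalised log2 values. This covered the 5 members, CBL and the probe shared by AT5G65750 and AT3G55410, not the arrays as a whole. Of 28 groups, in which each set of values entered on both scales, 0 passed the critical ratio of 0.829. THIC in root, through array 1, reached 0.752 and 0.766, and groups of 4 values leave such a check little power. Figures used matplotlib 3.10.9.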

Additional observations from a re-analysis of the deposited data

How the results depend on the processing

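Over 20 alternatives per gene, APS4 and CYN stayed higher in root and THIC and AT3G23940 lower, with log2 differences of 1.03 to 2.48, 2.19 to 3.10, -4.03 to -2.14 and -2.96 to -2.11. For most alternatives this direction was fixed in advance. Root and leaf values of these genes did not overlap after normalisation, so subsets of arrays, floors and the offset could not turn it. Blocks, filters and variance models leave the difference itself unchanged. Only the other scalings could have turned a sign. Members whose value moved by more than the SD between arrays, pooled over both tissues, and counts that moved by over 1.5 times, were as follows. As deposited, APS4 was at 2.46, AT3G23940 at -2.13 and AT3G58610 at 0.24, turned in sign, and 1138 of all probes were called higher in root, or 69.8% of calls against 47.7% after normalisation. Scaled to a common mean, these were 2.48, -2.11, 0.26 (turned) and 1154. Centred on medians, CYN was at 2.19 and AT3G58610 at -0.59. THIC was at -2.14 with the offset, and APS4 at 1.03 in replicates 1 and 2 alone and 2.40 in replicates 3 and 4 alone. With any 1 array left out, the differences ran from 1.36 to 2.01 for APS4, 2.78 to 2.98 for CYN, -3.67 to -2.59 for THIC, -2.89 to -2.50 for AT3G23940 and -0.47 to -0.27 for AT3G58610. CBL turned sign as deposited (0.55), scaled to a common mean (0.57) and in replicates 1 and 2 alone (0.44), and lay between -0.49 and 0.16 with any 1 array left out. The probe of AT5G65750 and AT3G55410 lost its call in the same 3 settings, leaving 0 pathway probes called there. The causes were not tested.

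Arrays with the same replicate number deviated together only weakly (r = 0.0901 to 0.126), and 1 of the 4 correlations was under 0.1, so the numbers were not taken as pairs, although each of the 8 arrays correlated best with its own number. With a replicate block 1244 probes were called in place of 1393, and with a block for replicates 1 and 2 against 3 and 4 the count was 1520. The differences cannot change under the replicate block, as each number holds 1 root and 1 leaf array. Under it the SE became 0.50 for THIC, against 0.70 without it, and 0.36 for AT3G23940, against 0.32. The lowest mean intensities, those of THIC in root and APS4 in leaf, lie nearest the floor.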
